A study of Homo sapiens with 6 samples.

Results

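Apolipoproteins are the protein parts of the lipid particles that carry cholesterol and triglyceride in plasma, and the liver is their main source. A set of 9 genes was examined, made up of 7 apolipoproteins or related plasma proteins (APOA1, APOA2, APOB, APOC3, APOE, APOH and APOM), the lipid transfer protein MTTP and the cholesterol-esterifying enzyme LCAT. They were measured in HepG2, an established human hepatoma line, on 3 arrays of untreated cells and 3 arrays of cells that received the water leaf extract of B. racemosa at 50 µg/ml for 24 h. Both groups were grown in the same serum-containing medium with antibiotics, and the untreated cells are known as such from their treatment label, with neither a vehicle nor a time in culture stated for them. The members were the transcript clusters of the array, each a set of probes for 1 transcript unit, for which the platform annotation gives exactly 1 symbol that is in the set. This gave 12 clusters for 8 of the 9 genes, out of 19291 clusters for 18372 genes that were tested. The 2 clusters of APOA1, the 2 of APOC3 and the 3 of APOM hold the same values on every array, so that there are 8 measured profiles and each gene was counted once. LCAT had no cluster of its own. The cluster that carries its symbol also carries SLC12A4 and was left out. It stood at a log2 value of 4.72 on 4 of the 6 arrays, at 4.94 on untreated array 2 and at 4.83 on leaf-treated array 2.

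Lipoprotein assembly in the hepatocyte starts when MTTP, in the endoplasmic reticulum, loads lipid onto APOB, the single large scaffold protein of very low density lipoprotein (VLDL) and low density lipoprotein. High density lipoprotein (HDL) is built on APOA1 and APOA2, while APOC3 and APOE move between particles, where APOC3 slows the clearance of triglyceride and APOE binds receptors. APOM carries sphingosine 1-phosphate on HDL, and APOH, also called beta-2-glycoprotein I, is a plasma protein that binds anionic phospholipids. Liver transcription factors such as HNF4A act on many of these genes.

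The promoters of APOH and APOM are shown because these 2 members stood at the 2 ends of the range of differences described below. RefSeq windows (GRCh38.p14) were found for 5 of the 8 measured members. The 250 bases before each start were searched on both strands for CAAAG, a short core motif of HNF4 sites, and on the gene's strand for TATAAA. Matches are in capitals, and none of them overlap in the windows shown. The first line lies at chr17:66229416-66229665 on the minus strand and the second at chr6:31655644-31655893 on the plus strand.
APOH: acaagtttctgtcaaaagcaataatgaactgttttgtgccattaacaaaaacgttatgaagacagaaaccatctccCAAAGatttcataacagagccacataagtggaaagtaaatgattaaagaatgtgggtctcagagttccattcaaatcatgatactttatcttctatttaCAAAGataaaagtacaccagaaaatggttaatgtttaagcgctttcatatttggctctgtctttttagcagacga
APOM: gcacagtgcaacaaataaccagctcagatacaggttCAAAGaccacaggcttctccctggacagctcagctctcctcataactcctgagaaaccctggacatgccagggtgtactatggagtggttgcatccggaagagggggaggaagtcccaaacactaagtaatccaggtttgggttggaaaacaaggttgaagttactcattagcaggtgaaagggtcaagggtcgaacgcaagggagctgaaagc

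The APOH window holds 2 matches of CAAAG or its reverse complement, the APOM window 1, and neither holds TATAAA. Of all 35116 windows in the table, 42.1% hold a CAAAG match and 6.8% TATAAA, so that CAAAG in particular is common. The more downstream of the 2 MTTP windows holds 1 CAAAG match, and the windows of APOA2 and APOE hold 0 matches of either motif. A match is a run of letters and not a measured binding site.

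The values are log2 expression as deposited, 1 unit being a doubling. The label of the cells was checked first. Of 12 measured hepatocyte markers, 11 (albumin, AFP, transferrin and others, all but TTC36) were above the 95th percentile of 378 clusters of olfactory receptor genes, a stand-in for background at 3.22 to 3.49, on all 6 arrays. All 8 member profiles were above this level on all 6 arrays. Of markers of other cells, 1 of 8 for fibroblasts (COL1A1), 3 of 7 for squamous lines (KRT13, KRT14 and KRT16) and 2 of 5 for leukocytes (LYZ and CD68) were above it, and PTPRC, CD3E and PDGFRA were not. The summed log2 level of the 7 squamous markers was 22.4 to 23.4 in untreated and 23.1 to 25.2 in leaf-treated cells, and the part of this in any result was not tested. Over all tested clusters the median was 3.71 to 3.74 on the untreated and 3.75 to 3.83 on the leaf-treated arrays, and the upper quartile was 5.26 to 5.34 and 5.18 to 5.35.

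None of the 8 members passed the test. Their log2 fold changes, leaf-treated minus untreated, ran from -0.20 to 0.23 with a median of -0.0933, and 7 of the 8 were below 0. No member had an adjusted p under 0.05 (the range was 0.51 to 0.9 from limma), where 0.00518% of all clusters, which is 1 cluster, did. The thresholds in the design text of the series (at least 1.5 fold and p under 0.05 before adjustment) were applied to the limma p. They were passed by 0 of 8 members and by 0.84% of all clusters. With the analysis of variance that the design text names, 0 members passed, and 68 lower and 33 higher of all clusters did. At an unadjusted limma p under 0.05 there was 1 lower member, APOH, where 5.9% of all clusters were lower, and 0 higher members, where 3.87% were higher. The 95% interval of every member, from the same fit and not adjusted for their number, lay inside a change of 1.5 fold in either direction, the outermost bounds being 0.689 and 1.39 times. Such an interval was found for 83.5% of all clusters. It speaks of RNA in whole cultures, in which fewer cells that express a gene and less RNA per cell cannot be told apart.

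**Figure D1:**
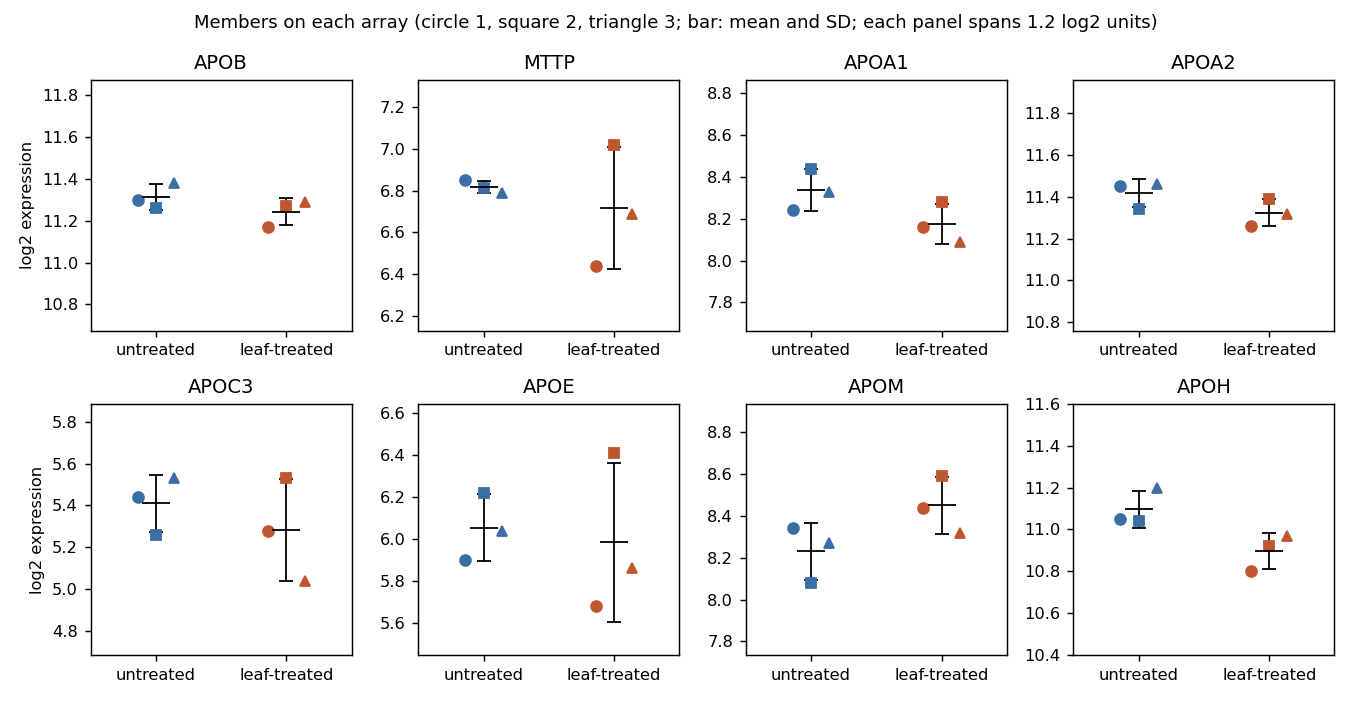
The log2 expression of the 8 measured members on each of the 3 untreated (blue) and 3 leaf-treated (orange) arrays, with array 1 as a circle, 2 as a square and 3 as a triangle and with bars for the mean and SD. Every panel spans the same range of log2 units around its own centre, and only the APOH groups stand apart, with untreated arrays from 11.04 to 11.20 and leaf-treated arrays from 10.80 to 10.97.

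APOB, the VLDL scaffold, read 11.30, 11.26 and 11.38 on the untreated arrays and 11.17, 11.27 and 11.29 on the leaf-treated arrays 1, 2 and 3. The lowest value was on leaf-treated array 1 and the groups overlapped. The mean was 11.31 ± 0.06 (SD, n = 3) against 11.24 ± 0.06 (SD, n = 3), a log2 fold change of -0.07 (standard error, SE, 0.07, limma adjusted p = 0.71). The 95% interval was 0.85 to 1.07 times the untreated level.

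MTTP, the transfer protein that lipidates APOB, read 6.85, 6.81 and 6.79 in untreated cells and 6.44, 7.02 and 6.69 in leaf-treated cells. The untreated arrays were close to each other, while the leaf-treated arrays held both the lowest and the highest of the 6 values. The mean was 6.81 ± 0.03 (SD, n = 3) against 6.72 ± 0.29 (SD, n = 3). On the log2 scale the groups differed by -0.10 (SE 0.14, limma adjusted p = 0.80), with a 95% interval of 0.737 to 1.19 times. Its sign turned when leaf-treated array 1 was left out, with a log2 fold change of 0.04, and after quantile normalization, with 0.03. Without leaf-treated array 2 it was -0.25, at an unadjusted p of 0.0432 from limma and an adjusted p of 0.23.

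APOA1, the main protein of HDL and the activator of LCAT, read 8.24, 8.44 and 8.33 in untreated and 8.16, 8.28 and 8.09 in leaf-treated cells. The groups overlapped through leaf-treated array 2, which was above untreated array 1. Between the means there was a log2 difference of -0.16 (SE 0.09, limma adjusted p = 0.53), with a 95% interval of 0.774 to 1.03 times. APOA2, the other main HDL protein, read 11.45, 11.34 and 11.46 against 11.26, 11.39 and 11.32. Here too leaf-treated array 2 lay within the range of the untreated arrays, and the log2 fold change was -0.09 (SE 0.07, limma adjusted p = 0.64). The interval for APOA2 was 0.836 to 1.06 times.

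APOC3, an inhibitor of triglyceride clearance, is the neighbour of APOA1 on chromosome 11. It read 5.44, 5.26 and 5.53 in untreated and 5.28, 5.53 and 5.04 in leaf-treated cells, and the groups overlapped over most of their range. Leaf-treated minus untreated, the log2 difference was -0.13 (SE 0.14, limma adjusted p = 0.72). APOE, a ligand of the lipoprotein receptors, read 5.90, 6.22 and 6.04 against 5.68, 6.41 and 5.86. Its leaf-treated arrays lay both above and below all untreated arrays, and the SD was 0.16 (n = 3) in untreated and 0.38 (n = 3) in leaf-treated cells. The difference on the log2 scale was -0.07 (SE 0.19, limma adjusted p = 0.90), and the interval of 0.689 to 1.32 times was the widest of the members. Without leaf-treated array 1 the APOE value was 0.08 and without untreated array 2 it was 0.01. The APOC3 value was -0.0075 without leaf-treated array 3 and -0.25 without leaf-treated array 2, and that of APOE was -0.28 without leaf-treated array 2.

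APOM, the sphingosine 1-phosphate carrier, was the member with a positive difference. It read 8.34, 8.08 and 8.27 in untreated and 8.44, 8.59 and 8.32 in leaf-treated cells. Leaf-treated arrays 1 and 2 were above all untreated arrays, and leaf-treated array 3 was just below untreated array 1. On the log2 scale the groups differed by 0.23 (SE 0.10, limma adjusted p = 0.51), with a 95% interval of 0.985 to 1.39 times. It was above 0 in every setting tried, from 0.15 to 0.37. The settings reuse the same arrays, and some, such as the analysis of variance and the replicate block, cannot change this value.

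APOH, the phospholipid-binding plasma protein, read 11.05, 11.04 and 11.20 in untreated and 10.80, 10.92 and 10.97 in leaf-treated cells. All leaf-treated arrays were below all untreated arrays. It was the 1 member of 8 with groups that did not overlap, where 7.41% of all clusters were lower without overlap and 6.14% higher. Between the means there was a log2 difference of -0.20 (SE 0.08, limma adjusted p = 0.51), with a 95% interval of 0.765 to 0.996 times. The difference was larger than the SD within either group, 0.09 (n = 3) and 0.08 (n = 3), and did not pass the adjustment over all clusters in any setting. Its unadjusted p was 0.0456, and it was above 0.05 when any untreated array or leaf-treated array 1 or 2 was left out.

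**Figure D2:**
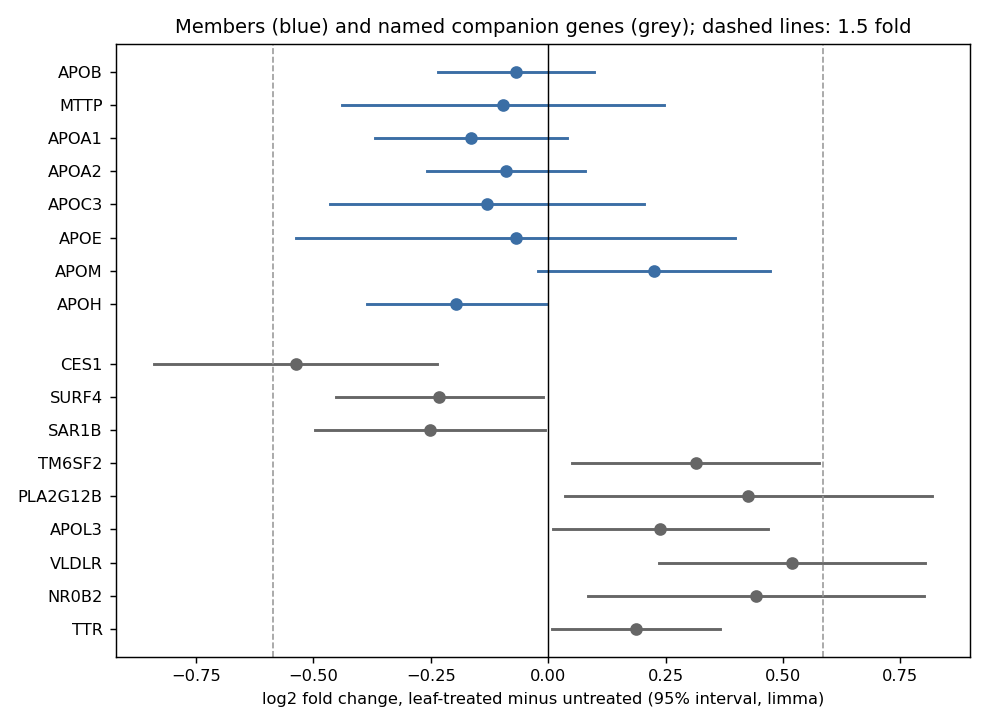
Log2 fold change (leaf-treated minus untreated, 3 arrays each) with its 95% interval from limma for the 8 members in blue and for 9 genes named from the companion lists and hepatocyte markers in grey, the dashed lines marking 1.5 fold. The member intervals lie between -0.54 and 0.47, inside the dashed lines, and those of CES1, PLA2G12B, VLDLR and NR0B2 cross them.

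The differences of the members were set beside those of all clusters of like level. The median log2 fold change of all 19291 clusters was 0.0108, but it was 0.048 for the 10817 clusters with a mean under 4, -0.0284 for means of 4 to 6, -0.12 for means of 6 to 8 and -0.11 for means of 8 and over. In the last 3 bands 56.7%, 75.5% and 78% of clusters were below 0. Of the members, 1 (APOC3) lies in the band of 4 to 6, 2 (APOE and MTTP) in that of 6 to 8 and 5 in that of 8 and over. The values of APOB, APOA2 and MTTP were within 0.05 of the median of their band. Those of APOA1, APOH and APOC3 were below it by more than that, the APOE value was above it, and APOM lay above 0 in a band where most clusters did not. After quantile normalization, which gives the arrays a common distribution, 4 members were below and 4 above 0. APOB, APOE and MTTP then stood at 0.0006, 0.03 and 0.03, APOA1 at -0.0574, APOH at -0.16 and APOM at 0.33.

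**Figure D3:**
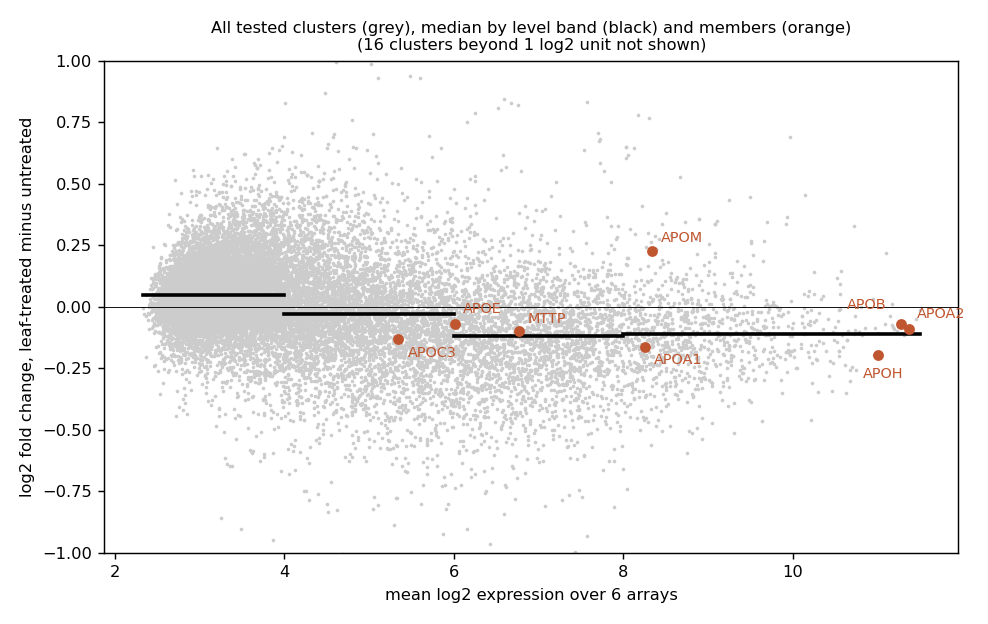
Log2 fold change (leaf-treated minus untreated) against mean log2 expression over the 6 arrays for all tested clusters in grey, with the median of 4 level bands as black lines and the members in orange; 16 clusters beyond the axis are not drawn. The black lines step from 0.048 at the lowest levels to -0.11 at the highest, and APOM lies above the line of its band.

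The leaf-treated arrays did not stand together. The median deviation of the 8 members from their untreated mean was -0.167 on leaf-treated array 1, 0.0467 on array 2 and -0.124 on array 3. For the 3413 clusters with a mean of 6 or over the same medians were -0.163, 0.000133 and -0.173. Leaf-treated array 2 was the highest of the 3 leaf-treated arrays for 6 of the 8 members and the highest of all 6 arrays for 3, MTTP, APOE and APOM. In the bands of 6 to 8 and of 8 and over, 74.2% and 70.3% of all clusters were highest on that array among the leaf-treated ones, and 33.1% and 28.5% among all 6. Leaf-treated array 1 held the lowest of the 6 values for 5 members, APOB, MTTP, APOA2, APOE and APOH, and for 3553 of all 19291 clusters. Of these 19291 clusters 10817 have a mean under 4, where no member lies, and the share by level band was not taken. With array 2 as the only treated array the members' median was 0.0467, with APOE at 0.36, MTTP at 0.20 and APOC3 at 0.12, and without that array it was -0.21. The spread among leaf-treated arrays was wider than among untreated arrays for 4 of 8 members, where it was wider for 12810 of all 19291 clusters. In the bands of 4 to 6, 6 to 8 and 8 and over it was wider for 70%, 79.1% and 72% of clusters. The members with the widest leaf-treated spread were APOE, MTTP and APOC3, at SDs of 0.38, 0.29 and 0.25 (n = 3).

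The profiles of the members were also set against each other, as the root mean square difference of log2 values centred over the 6 arrays. The most alike were APOA2 and APOB at 0.037, followed by APOB and APOH at 0.068, and the least alike were APOE and APOM at 0.28. APOA1 and APOC3, which lie side by side, differed by 0.16. For APOM, the member with the largest difference, the nearest of 8471 other clusters were MRPL54, a mitochondrial ribosomal protein, at 0.036, SNX9, a sorting nexin, at 0.041 and SLC6A11, a GABA transporter, at 0.047. With 6 arrays and this many clusters, close matches are a description only.

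Other genes of lipoprotein metabolism were taken as 5 lists, in which 76 of 89 genes were measured as 78 profiles. None passed the adjustment or the thresholds of the design text, and 3 were lower and 5 higher at an unadjusted p under 0.05, where 5.9% and 3.87% of all clusters were. The median of these profiles was 0.00222, beside 0.0108 for all clusters.

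Among 15 other apolipoproteins the log2 fold changes ran from -0.26 to 0.24, with a median of -0.0203 and 9 below 0. Only 8 of the 15 were above the background stand-in on all arrays, where all 8 members were. LPA and APOL3, at the 2 ends of this range, were not above it. APOC1, the neighbour of APOE on chromosome 19, had a log2 fold change of -0.10 (SE 0.16, limma adjusted p = 0.82), with leaf-treated arrays from 6.58 to 7.19 around untreated arrays from 6.83 to 7.07. APOA4 and APOA5, of the same gene cluster as APOC3 on chromosome 11, were near background at 3.41 to 3.85 and had values of -0.0015 and 0.02. The trypanolytic factor APOL1 had a value of -0.19 and the chaperone clusterin (CLU) one of 0.03. APOL3 had the smallest unadjusted p of the list at a log2 fold change of 0.24 (limma adjusted p = 0.51), but at 2.84 to 3.29 it was not above the background stand-in on all arrays, so that the size of this difference has little meaning.

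The VLDL assembly and secretion list had 20 genes in 22 profiles and a median of -0.121, with 3 lower and 2 higher at an unadjusted p under 0.05, again beside 5.9% and 3.87% of all clusters. CES1, a carboxylesterase that mobilises stored lipid, read 9.07, 9.32 and 9.21 in untreated and 8.43, 8.73 and 8.84 in leaf-treated cells, without overlap. Leaf-treated minus untreated, the log2 difference was -0.54 (SE 0.13, limma adjusted p = 0.38), which is 0.689 times. The cargo receptor SURF4 and the coat GTPase SAR1B, which act in the export of lipoproteins from the endoplasmic reticulum, had values of -0.23 (SE 0.09, limma adjusted p = 0.51) and -0.25 (SE 0.10, limma adjusted p = 0.51), both without overlap of the groups. SAR1B was named after its value had been seen. PLA2G12B, a catalytically inactive phospholipase needed for lipid loading of VLDL, read 5.02, 4.81 and 5.16 against 5.37, 5.73 and 5.16. Its groups met at 5.16, and the log2 fold change was 0.43 (SE 0.16, limma adjusted p = 0.51) and 0.27 without leaf-treated array 2. TM6SF2, a membrane protein of the same step, had a value of 0.31 (limma adjusted p = 0.51) at levels of 3.55 to 4.13. P4HB, the disulphide isomerase that is the partner subunit of MTTP, had 2 clusters with values of -0.06 and -0.16 (limma adjusted p = 0.75 and 0.52). Because up to 2 genes in each direction were named, values on both sides of 0 follow from the naming. Of all 22 profiles of the list, 13 were below 0 and 9 above. In the 4 level bands, from low to high, 33.1%, 56.7%, 75.5% and 78% of all clusters were below 0.

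Of 11 genes of plasma remodelling, 0 reached an unadjusted p under 0.05, and their values ran from -0.21 to 0.26. Of 11 measured lipoprotein receptor genes, 1 did, where 5.9% of all clusters were lower and 3.87% higher at this p. VLDLR, a receptor that binds APOE-containing particles, read 6.02, 6.01 and 5.75 in untreated and 6.25, 6.56 and 6.52 in leaf-treated cells, without overlap. The difference on the log2 scale was 0.52 (SE 0.12, limma adjusted p = 0.38), which is 1.43 times, with a 95% interval of 1.18 to 1.74 times. The HDL receptor SCARB1 and the remnant receptor LRP1 had values of -0.10 and -0.16 (limma adjusted p = 0.70 and 0.60).

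At an unadjusted p under 0.05, 5.9% of all clusters were lower and 3.87% higher. Among 19 measured regulators of apolipoprotein genes, NR0B2 was the 1 that reached this. It encodes SHP, a nuclear receptor without a DNA-binding domain that represses other nuclear receptors. It read 6.06, 5.78 and 5.98 in untreated and 6.19, 6.69 and 6.26 in leaf-treated cells, without overlap. On the log2 scale the groups differed by 0.44 (SE 0.15, limma adjusted p = 0.50), and it was 0.29 without leaf-treated array 2, the array with the highest value. FOXA1, a pioneer factor of liver, had a value of -0.17 (limma adjusted p = 0.51) and leaf-treated arrays from 5.89 to 6.02, below untreated arrays from 6.07 to 6.21. It was the 1 regulator of 19 that was lower without overlap, and 3 were higher without overlap. These were NR0B2, FOXA3 at 0.145 (levels of 3.66 to 3.88) and RORA at 0.162 (levels of 3.48 to 3.80). Of all clusters, 7.41% were lower and 6.14% higher without overlap. The other regulators had values from -0.19 to 0.28.

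**Figure D4:**
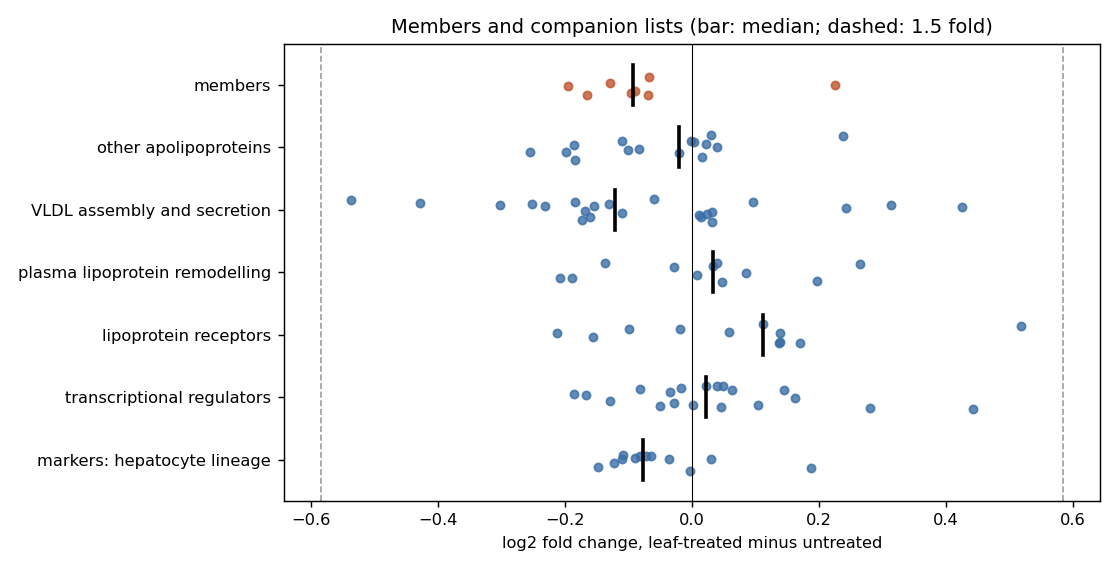
Log2 fold changes (leaf-treated minus untreated) of the 8 members in orange and of each profile of 5 companion lists and the hepatocyte markers in blue, with the median of each list as a bar and 1.5 fold as dashed lines. All points lie inside the dashed lines, the farthest being CES1 at -0.54 and VLDLR at 0.52.

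Markers of the hepatocyte lineage, most of them secreted proteins of the liver, were set beside the members. The 12 measured markers had a median of -0.0767, beside -0.0933 for the members, with 10 below 0 and values from -0.15 to 0.19. Most of them have means of 8 and over, where 78% of all clusters were below 0 and the median was -0.11. Albumin had a log2 fold change of -0.11 and alpha-fetoprotein (AFP) one of -0.15 (limma adjusted p = 0.68 and 0.53). Transthyretin (TTR), a carrier of thyroxine and retinol-binding protein, had a positive value like APOM, at 0.19 (SE 0.07, limma adjusted p = 0.51), and its untreated arrays from 9.17 to 9.32 lay below its leaf-treated arrays from 9.35 to 9.50. TTR was the 1 marker of 12 without overlap, where 6.14% of all clusters were higher and 7.41% lower without overlap.

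**Figure D5:**
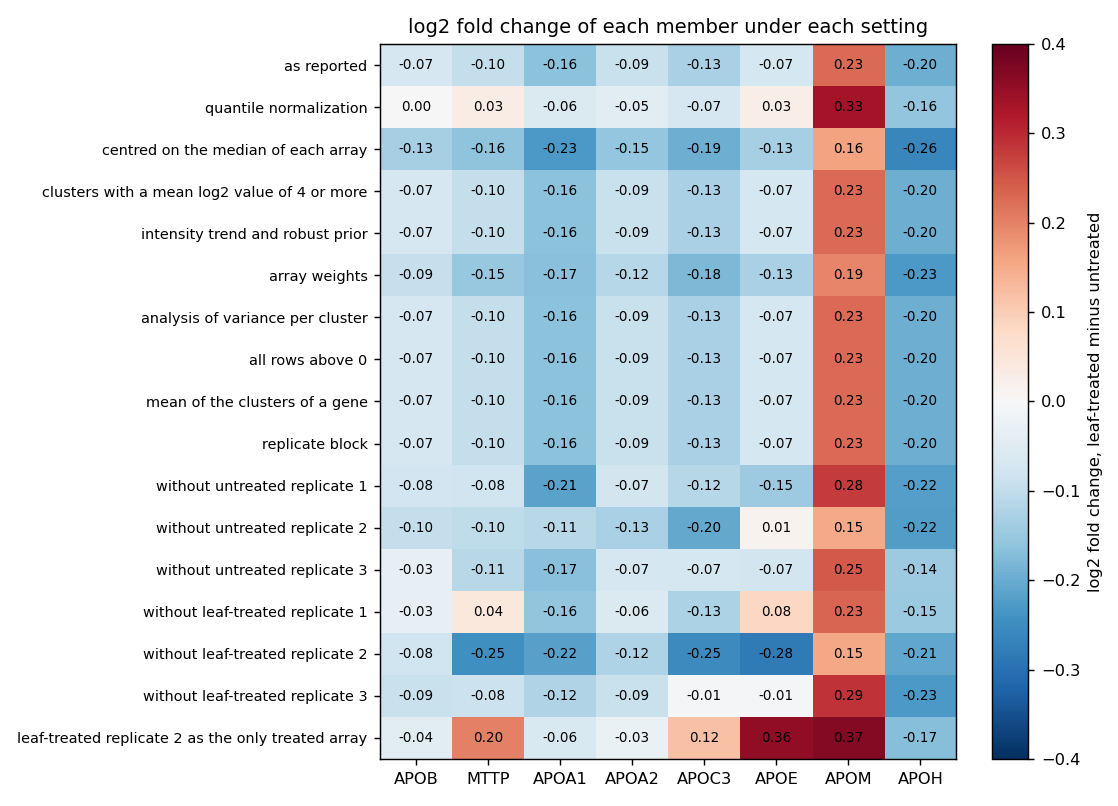
Log2 fold change (leaf-treated minus untreated) of each member, in columns, as reported and under 16 other settings, in rows, with colour from blue for negative to red for positive values. APOM is positive and APOA1, APOA2 and APOH negative in every row, while APOB, MTTP, APOC3 and APOE turn in at least 1. All rows reuse the same arrays, and some, such as the analysis of variance and the replicate block, cannot change a value.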

How the data were processed

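Transcripts of HepG2 cells were measured on Affymetrix Human Gene 1.0 ST arrays, 3 in each group. The authors deposited log2 values, 1 per transcript cluster and array, made with RMA (background correction, normalization and probe summary) according to the submitters' processing notes, which also list Partek and GCOS. Versions and settings were not given there. Of 33297 rows, 4468 at 0 on all arrays were dropped. Clusters with exactly 1 symbol in the platform annotation (symbols updated through RefSeq) were tested with limma 3.58.1 in R 4.3.3 (lmFit, eBayes, no covariate), with Benjamini-Hochberg adjustment over 19291 clusters and standard errors and 95% intervals from the same fit. The fit was tested on simulated data.

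The number of arrays limits the precision, and no detection calls were used here. The labels call replicates biological without naming cultures, so p-values measure the spread between these samples, which may be technical. Members and lists were chosen with earlier results of these data known. All members are named. Of each list, up to 2 clusters per direction with the smallest unadjusted p under 0.05, or all past the thresholds of the design text, are named. Other genes, such as P4HB, SAR1B, APOC1, APOA4, APOA5, APOL1, CLU, SCARB1, LRP1, FOXA1, FOXA3, RORA, LPA, ALB and AFP, were named after their values had been seen. For likeness, clusters with a mean of 4 or more were compared. The alternatives, 16 in number, are quantile normalization, median centring, a filter on dim clusters, a trend with a robust prior, array weights, the analysis of variance that the design text names, all rows, the mean of a gene's clusters, a replicate block, each array left out and array 2 as the only treated array.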

Additional observations from a re-analysis of the deposited data

How the results depend on the processing

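No member passed the adjustment or the thresholds of the design text in any of the 16 settings. The lowest adjusted p of a member was 0.23, for limma without leaf-treated array 2. The count of members at an unadjusted p under 0.05, which was 1, was 2 after quantile normalization (APOH and APOM) and centring (APOA1 and APOH). It was 0 with the filter on dim clusters, by analysis of variance and with the replicate block. Leaving out 1 array gave 0 to 2, being 2 without leaf-treated array 2 (APOA1 and MTTP lower) or 3 (APOH lower, APOM higher) and 0 otherwise. The share of all clusters at this p was taken only as deposited. With array 2 as the only treated array the spread comes from the untreated arrays alone (for MTTP, an SD of 0.03 against 0.29 in leaf-treated cells), so its p-values carry little weight. Same-numbered arrays deviated with correlations of -0.11, -0.15 and 0.18 over 8474 clusters, and others with -0.205 to 0.282. With deviations summing to 0 per group, this cannot decide pairing. The median over the members was -0.21 to -0.0457 with 1 array left out (-0.21 without leaf-treated array 2), and turned to 0.0467 with array 2 as the only treated array.

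With 1 array left out, values ranged from -0.22 to -0.11 for APOA1, -0.13 to -0.0578 for APOA2, -0.0958 to -0.0325 for APOB, -0.25 to -0.0075 for APOC3, -0.28 to 0.08 for APOE, -0.23 to -0.14 for APOH, 0.15 to 0.29 for APOM and -0.25 to 0.04 for MTTP. APOE turned to 0.0137 without untreated array 2 and to 0.0823 without leaf-treated array 1, where MTTP turned to 0.0412. Quantile normalization turned APOB to 0.000644, APOE to 0.0251 and MTTP to 0.0281. With array 2 as the only treated array APOC3 turned to 0.12, APOE to 0.36 and MTTP to 0.20. Causes were not tested.

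In the companion lists the count past the thresholds of the design text, which was 0, was 1 after quantile normalization (VLDLR) and 1 after centring (CES1). It was 0 to 1 with 1 array left out (CES1 without untreated array 1 or leaf-treated array 3, VLDLR without leaf-treated array 1). With array 2 as the only treated array NR0B2, PLA2G12B and VLDLR, each highest on that array, had values of 0.75, 0.735 and 0.638. The count at an unadjusted p under 0.05, which was 8, was 5 by analysis of variance. The filter on dim clusters gave 4 (APOL3 and TM6SF2 removed, SURF4 and SAR1B above 0.05). Leaving out 1 array gave 5 to 14, 14 being without leaf-treated array 2. Of all clusters, 110 lower and 52 higher passed the thresholds of the design text as deposited and 80 and 63 after quantile normalization. Centring gave 189 and 30 and moved the median of all clusters to -0.0535. Leaving out leaf-treated array 2 gave 323 and 167, and another array 68 to 149 and 41 to 61. The outermost 95% bounds of a member stayed inside 1.5 fold except for 1 or 2 members after centring, by analysis of variance, without an array (any of the 3 untreated or leaf-treated array 3) and with array 2 as the only treated array. The lowest such bound was 0.6 times without untreated array 1 and the highest 1.81 times with array 2 as the only treated array.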

Other observations

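The genes next to the members in the RefSeq gene order, 4 protein-coding genes on each side where tested, were looked at after the members' values were known. Around APOM, in the class III region of the major histocompatibility complex on chromosome 6, 8 neighbours had log2 fold changes from -0.17 (CSNK2B, a kinase subunit) to 0.32 (NCR3, near background at a mean of 3.44), with a median of 0.05. The genes on either side, BAG6 and C6orf47, had values of -0.08 and 0.18 beside 0.23 for APOM. Around MTTP on chromosome 4, 7 neighbours ran from -0.61 to 0.04. The lowest was TRMT10A, a tRNA methyltransferase that is adjacent to MTTP, at a mean log2 level of 3.76, beside -0.10 for MTTP itself. Around APOB on chromosome 2, the lipid droplet hydrolase LDAH had a value of -0.33 and the GTPase RHOB one of 0.31. The neighbours of APOH on chromosome 17 ran from -0.16 to 0.15, with a median of 0.01.

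Equal values on different arrays are frequent in the deposited table. Of the 19291 tested clusters, 1066 (5.53%) have the same value on 4 or more of the 6 arrays, as the cluster shared by SLC12A4 and LCAT does. None of the 8 members has the same value on any 2 arrays.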
